A study of Mus musculus with 9 samples.

Results

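The cytosolic heat shock genes examined here are *Hspa1a*, *Hspa1b*, *Hspa8*, *Hsp90aa1*, *Hsp90ab1*, *Hsph1*, *Dnajb1*, *Hspb1*, *Hspb8* and *Hsf1*. They were chosen by name, and all 10 were listed in both deposited tables, which share 13259 genes. RNA-seq was done on AML12 cells, a hepatocyte line grown from the liver of a mouse carrying a human TGF-alpha transgene, on day 5 of infection with shRNA-containing lentivirus. There were 3 libraries with a control hairpin, 3 with *Srrm2* shRNA 1 and 3 with *Srrm2* shRNA 2, and all groups were cultured with serum, ITS supplement and dexamethasone. *Srrm2* encodes a scaffold protein of nuclear speckles, the nuclear bodies that hold splicing factors, and the study depleted it to disrupt them. Nothing in the labels says that the replicates came from separate infections.

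Each table gives the mean normalized count of a gene, which is the number of reads after correction for library depth, averaged by the authors over the control libraries and the libraries of 1 hairpin. This authors' mean was the only measurement used. It holds control and knockdown cells together, so it gives the level of a gene in the experiment but neither its change against the control nor a spread between replicates, and no test was made. Means summed to 6144608 over the genes of the shRNA 1 table and to 6393456 over those of the shRNA 2 table. *Srrm2* itself had authors' means of 3428 and 3759, from which the degree of its knockdown cannot be read. Of 12 hepatocyte markers, 11 were listed in both tables, with *Apob* at 20192 and 22608, *Alb* at 2151 and 1814, and *Hnf4a* at 1498 and 1624. The bile duct keratins *Krt19* and *Krt7* were also present, at 2851 and 1351 in the shRNA 1 table, as was *Sox9*, whereas *Epcam* was not listed in both tables. None of 4 endothelial markers was listed in both tables, and 2 of 5 markers of stellate cells and fibroblasts summed to 11.9 and 9.66. For leukocytes 5 marker symbols were searched, of which *Adgre1* and *Emr1* name the same gene, and the 2 that were listed in both tables summed to 30.4 and 35.3.

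Heat shock proteins are chaperones that keep other proteins folded. HSP70 proteins bind unfolded stretches of a client with the help of J-domain proteins such as Dnajb1, and are emptied for the next round by nucleotide exchange factors such as the HSP110 protein Hsph1. HSP90 proteins act later on clients that are nearly folded, among them kinases and steroid receptors, and small heat shock proteins hold unfolded clients without using ATP. Hsf1 is the transcription factor that switches many of these genes on when unfolded proteins accumulate. It binds heat shock elements, which are inverted repeats of the bases GAA. Some members, such as *Hspa8* and *Hsp90ab1*, are made in unstressed cells, whereas *Hspa1a* and *Hspa1b* are known for their induction by stress.

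The genes covered a wide range of levels. In the shRNA 1 table the authors' means ran from 18.8 for *Hspa1a* to 9708 for *Hspa8*, and the sum of the 10 genes was 0.426% of all means there and 0.423% in the shRNA 2 table. *Hspa8*, *Hsp90ab1* and *Hsp90aa1* made up 92.4% and 92.2% of that sum. To compare genes of different length, each mean was divided by the length of the gene's annotated exons. Per kilobase of exon, 4 of the 10 genes (*Hsp90ab1*, *Hspa8*, *Hsp90aa1* and *Hspb1*) lay in the top 10% of all genes in both tables, and *Hspa1a* and *Hspa1b* lay below the median of all genes, which was 44.2 in the shRNA 1 table and 46.5 in the shRNA 2 table. As the means carry no spread, neighbours in this order cannot be told apart by a test.

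**Figure D1:**
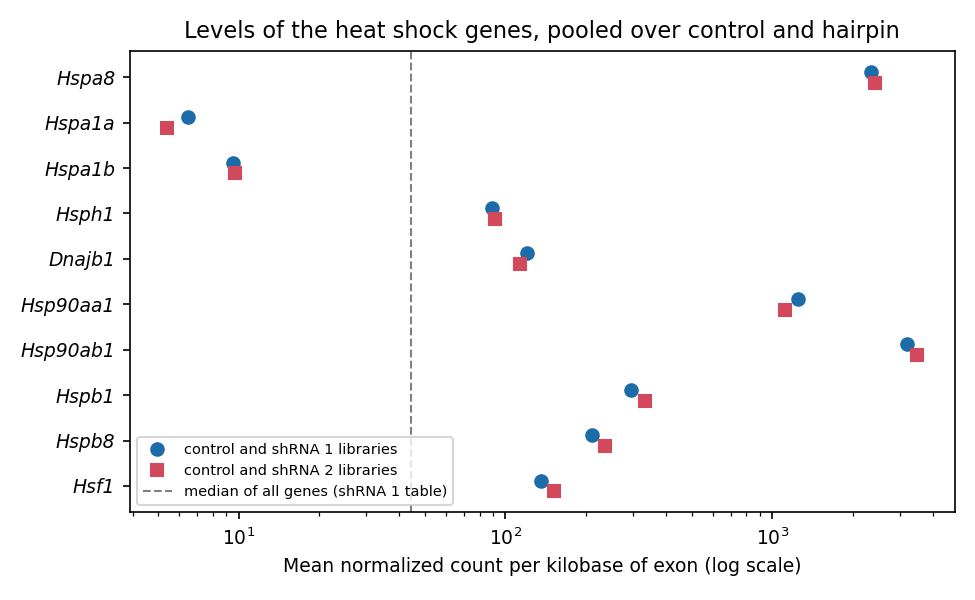
Mean normalized count per kilobase of annotated exon (x axis, log scale) of the 10 heat shock genes (rows) in the table of control and shRNA 1 libraries (circles) and that of control and shRNA 2 libraries (squares). No error can be shown, because the means are pooled. *Hsp90ab1*, *Hspa8* and *Hsp90aa1* lie between 1114 and 3495, and *Hspa1a* and *Hspa1b* between 5.40 and 9.67, left of the dashed median of all genes at 44.2.

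*Hspa8* encodes the constitutive cytosolic HSP70, which also strips clathrin from vesicles. It occupies positions 40609067 to 40613283 of chromosome 9 (mm9, + strand), and its longest coding transcript has 9 exons. The authors' mean was 9708 in the shRNA 1 table and 10087 in the shRNA 2 table, or 2336 and 2427 per kilobase, at ranks 63 and 67 of 13259 genes. Its introns hold the small nucleolar RNA genes *Snord14c*, *Snord14d* and *Snord14e* on the same strand, and none of these was listed in either table.

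*Hspa1a* and *Hspa1b* encode the stress-inducible HSP70 and are neighbours on chromosome 17 (mm9, - strand), with *Hspa1b* at 35093381 to 35096183 and *Hspa1a* at 35106144 to 35109069. Both transcripts have 1 exon and thus need no splicing, the process in which nuclear speckle factors take part. *Hspa1a* had authors' means of 18.8 and 15.8 in the shRNA 1 and shRNA 2 tables, and *Hspa1b* had 26.7 and 27.1. Per kilobase of annotated exon, *Hspa8* stood 146-fold above the sum of both in the shRNA 1 table and 161-fold above it in the shRNA 2 table. These folds depend on the length used. The annotated exons of *Hspa8* cover 4156 bases, nearly its whole span, against 2926 for *Hspa1a* and 2803 for *Hspa1b*. If each mean holds as many control as hairpin libraries, the pooled means also set a ceiling for each group. No group mean can then exceed 2 times the mean that contains it. The labels leave this open for the shRNA 2 table, so it was assumed. *Hspa1a* was therefore at most 37.6 normalized counts in shRNA 1 cells and, after the shRNA 2 table had been scaled to the shRNA 1 table as described below, 30.1 in control and in shRNA 2 cells. For *Hspa1b* the ceilings were 53.5 in shRNA 1 cells and 51.7 in the other two groups. A predicted coding gene, *Gm20481*, overlaps *Hspa1a* on the opposite strand and was not listed.

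How the reads of this pair were counted matters for these levels, since the authors kept uniquely mapped pairs alone. The coding sequences have 1926 bases in *Hspa1a* and 1929 in *Hspa1b*, and differ at 8 of 1926 aligned bases and by a gap of 3 bases, which is an identity of 99.6%. The longest stretch of identical coding sequence was 638 bases. The 60 coding bases from 1357 to 1416, counted from the start codon in the GENCODE M1 transcripts, are shown because they hold 2 of the differences, which is the most in any 60 bases without a gap, and the differing bases are in capitals.
Hspa1a: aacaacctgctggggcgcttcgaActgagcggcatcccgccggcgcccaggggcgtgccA
Hspa1b: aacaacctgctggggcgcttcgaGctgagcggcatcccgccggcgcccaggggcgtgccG
A read pair that covers no differing base cannot be assigned to either gene. Of the 100-base windows of the *Hspa1a* transcript, 49.3% occurred exactly elsewhere in the genome, as did 49.9% of those of *Hspa1b*. The values of the pair are for these reasons uncertain, both in level and in the split between the genes.

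Shared sequence was not limited to this pair. For *Hspa8*, 63.8% of 2295 windows occurred elsewhere, and 8 loci on chromosomes 1, 3, 5, 6, 10 and 14 were at least 90% identical over at least 50% of the transcript. The closest, on chromosome 5 from 5781529 to 5783636, was 99.4% identical and overlaps the pseudogene *Gm15459* and the lincRNA gene *Gm17431*. For *Hsp90aa1* the share was 60.4% of 3182 windows, and there were 2 such loci. The first lies on chromosome 11, from 77106940 to 77109909, at the pseudogene *Gm12346* within the span of the gene *Ssh2*, with an identity of 99.5%, and the second is the pseudogene *Gm5844* on chromosome 3. For *Hspb1*, 48.7% of 831 windows were shared with a locus on chromosome 13 annotated as the predicted coding gene *Gm9817* and the pseudogene *Hsp25-ps1*. *Hsp90ab1* had 1 similar locus, the pseudogene *Gm6368* on the X chromosome at 90.8% identity, but none of its windows occurred there without a difference. No similar locus and no shared window was found for *Hsph1*, *Dnajb1*, *Hspb8* and *Hsf1*. None of these pseudogenes was listed in either table, and neither were *Gm17431* and *Gm9817*.

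**Figure D2:**
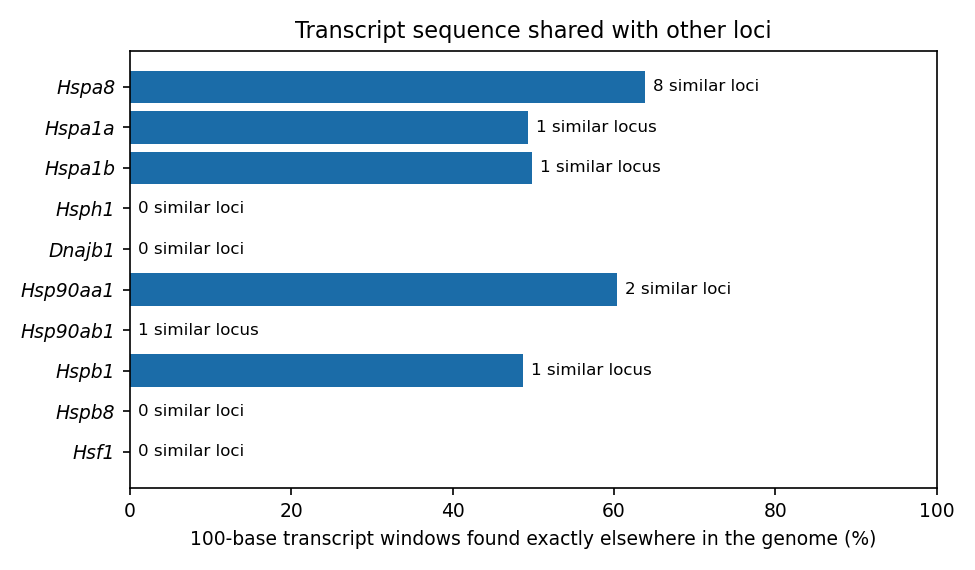
Percentage of the 100-base windows of each longest coding transcript that occur exactly at another place in the mouse genome (x axis), for the 10 heat shock genes (rows), with the number of loci at least 90% identical over at least 50% of the transcript. *Hspa8* (63.8%), *Hsp90aa1* (60.4%), *Hspa1b* (49.9%), *Hspa1a* (49.3%) and *Hspb1* (48.7%) share sequence, and the other genes have no shared window.

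The distance between the HSP90 genes depended on the length used. *Hsp90aa1* (mm9, - strand of chromosome 12, 111928815 to 111940938) encodes the inducible cytosolic HSP90 and had authors' means of 4919 and 4379 in the shRNA 1 and shRNA 2 tables. *Hsp90ab1* (- strand of chromosome 17, 45704724 to 45710220) encodes the constitutive form and had 9590 and 10480. Per kilobase of exon, *Hsp90aa1* stood at 1251 and *Hsp90ab1* at 3198 in the shRNA 1 table, and at 1114 and 3495 in the shRNA 2 table. When the means were instead divided by the number of windows of the longest coding transcript that do not occur elsewhere, *Hsp90aa1* stood at 3907 and *Hsp90ab1* at 3961 in the shRNA 1 table, and at 3478 and 4329 in the shRNA 2 table, so the order was the same and the gap smaller. By the same division *Hspa8* was at 11697 in the shRNA 1 table in place of 2336, *Hspb1* at 715 in place of 295.5, *Hspa1a* at 13.1 in place of 6.43 and *Hspa1b* at 19.7 in place of 9.54. A part of these moves came from the shorter transcript length itself, which put *Hspa8* at 4055 and *Hsp90ab1*, which has no shared window, at 3806. By transcript length *Hspa8* thus stood above *Hsp90ab1* in the shRNA 1 table, the reverse of their order per kilobase of exon. With the division by windows, the distance of *Hspa8* from the sum of *Hspa1a* and *Hspa1b* was 356-fold in the shRNA 1 table and 391-fold in the shRNA 2 table. This division was added after the shared windows had been seen. It can overcorrect, because a read pair with a differing base in either mate can be placed even if part of it lies in a shared window. A transcript also has fewer windows than bases, which took *Hsp90ab1* from 3806 to 3961.

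The other genes had intermediate levels. *Hsph1*, the HSP110 exchange factor, lies on the - strand of chromosome 5 from 150416862 to 150438951 and has 18 exons, the most of the 10 genes. Its authors' means were 626 and 645, or 88.9 and 91.6 per kilobase, in the shRNA 1 and shRNA 2 tables. *Dnajb1*, the J-domain partner of HSP70, lies on the + strand of chromosome 8 from 86132074 to 86135801 and had 298 and 280.5, or 120.7 and 113.5 per kilobase. Among the small heat shock proteins, *Hspb1* (+ strand of chromosome 5, 136363789 to 136365433) had 305 and 344, and *Hspb8* (- strand of chromosome 5, 116858500 to 116872873), which works with Bag3 in the clearance of misfolded proteins, had 411 and 462. *Hsf1*, on the + strand of chromosome 15 from 76307865 to 76331402, had 295 and 332, or 135.5 and 152.3 per kilobase. All of these lay above the median of all genes.

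The tables allow a limited comparison of the hairpins. If the same control libraries are in both means, which is how the design reads, a difference between the tables comes from the hairpin libraries. The label of control replicate 1 names both tables, but those of replicates 2 and 3 name the shRNA 1 table and a table of a further hairpin, not analysed here, so this was assumed. The shRNA 2 table was scaled by the median ratio over the 7757 genes whose means reached 100 in each table, a factor of 1.05. The log2 ratio of the scaled means is called the shift below. The difference of the scaled means, multiplied by 2, is then the mean of shRNA 2 libraries less that of shRNA 1 libraries, and the ratio itself is the least fold by which the hairpins can differ, as the shared controls pull it towards 1. The largest counting error that the means allow is given beside each difference. It takes the size factors of the libraries to be near 1 and covers the sampling of reads but not the spread between cultures.

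Of the 10 heat shock genes, none was higher in the shRNA 2 table by a log2 value over 0.25 and 1, *Hspa1a*, was lower. Of 11451 genes whose means reached 10 in each table, 817 (7.13%) were higher and 834 (7.28%) lower by that measure, so 1 in 10 was close to the share of all genes. Without scaling, every shift was higher by 0.068, and 1428 of all genes were higher and 503 lower. The median shift of the heat shock genes was -0.02, against 0.004 for all genes, with 4 of the genes higher and 6 lower. Without scaling 7 were higher and 3 lower, since *Hspa8*, *Hspa1b* and *Hsph1* changed sign.

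*Hsp90aa1* had the largest difference for its precision. Its authors' mean of 4919 in the shRNA 1 table stood against a scaled mean of 4177 in the shRNA 2 table, a shift of -0.24, just inside the threshold. The implied mean of shRNA 2 libraries was lower than that of shRNA 1 libraries by 1484 normalized counts (the difference was -1484, with a counting error of at most 77.9), which is at least a 1.18-fold difference between the hairpins. Without scaling the shift was -0.17. *Hsp90ab1* moved the other way, with a shift of 0.06 and an implied difference of 815 (counting error at most 114). The ratio of the genes needs no scaling of the tables. *Hsp90aa1* per *Hsp90ab1*, per kilobase of exon, was 0.391 in the shRNA 1 table and 0.319 in the shRNA 2 table, a log2 change of -0.30. Of the other cytosolic genes, *Dnajb1* had a shift of -0.16 and an implied difference of -61.3 (counting error at most 19.4).

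The shift of *Hspa1a* was -0.32, the largest of the 10 in size, but rested on few reads. The implied difference was -7.50 normalized counts with a counting error of at most 4.75, and so was less than 2 times that error. *Hspa1b*, its near copy, had a shift of -0.05 and an implied difference of -1.74 (counting error at most 5.92). Neither exceeded 2 times the largest counting error.

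*Hspa8* had a shift of -0.01, with an implied difference of -172 against a mean of 9708 and a counting error of at most 113.5, and *Hsph1* had -0.02, with -21.4 and a counting error of at most 28.8. *Hspb1*, *Hspb8* and *Hsf1* lay on the higher side with shifts of 0.11, 0.10 and 0.10. The implied differences were 47.8, 58.2 and 42.7 normalized counts, with counting errors of at most 20.6, 23.8 and 20.2. In all, 6 of the 10 genes (*Hsp90aa1*, *Hsp90ab1*, *Dnajb1*, *Hspb1*, *Hspb8* and *Hsf1*) had a difference over 2 times the largest counting error, in either direction, as had 41.9% of the 11451 genes. This limit is passed more easily by genes with high means. Whether any of these exceeded the spread between replicates was not tested, because no value per library was used.

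**Figure D3:**
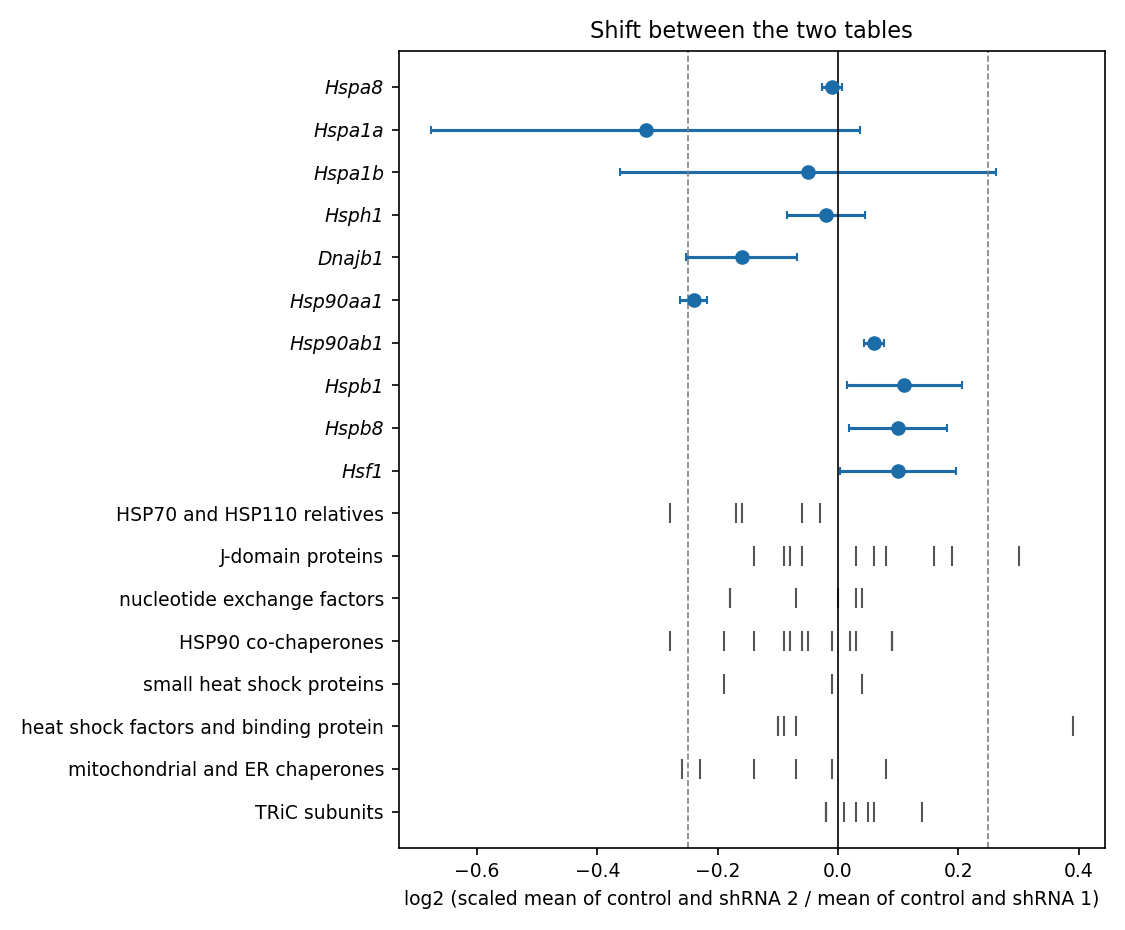
Shift, the log2 ratio of the scaled mean of control and shRNA 2 libraries to the mean of control and shRNA 1 libraries (x axis), for the 10 heat shock genes (circles, upper rows) and for the genes of 8 further chaperone lists with means reaching 10 (ticks, lower rows). Bars are 95% intervals from the largest counting error and leave out the spread between cultures, and dashed lines mark ±0.25. *Hsp90aa1* at -0.24 has a narrow interval and *Hspa1a* at -0.32 a wide one that includes 0.

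**Figure D4:**
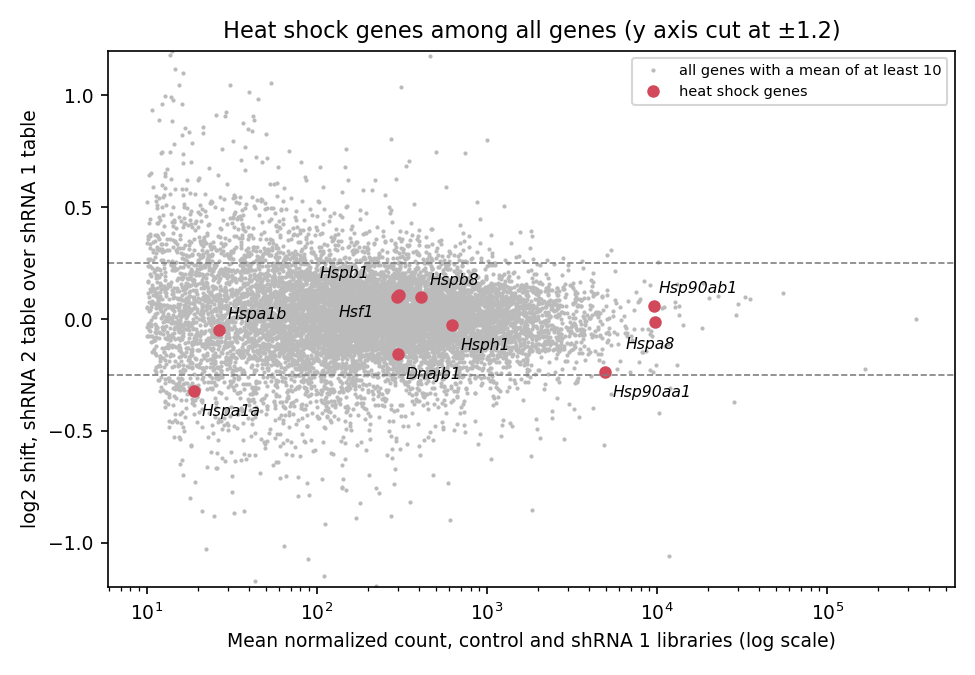
Shift between the tables (y axis, log2) against the mean normalized count of control and shRNA 1 libraries (x axis, log scale) for the 11451 genes with a mean of at least 10 (grey) and the 10 heat shock genes (red), of which 9 lie between the dashed lines at ±0.25. The axis leaves out 19 genes beyond ±1.2, none of them a heat shock gene.

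Further chaperones and co-chaperones were taken from 8 lists written by hand. Of their 63 genes, 57 were listed in both tables and 56 had means reaching 10, of which 2 were higher and 3 lower past a shift of 0.25, beside the 7.13% and 7.28% of all genes. The median shift of these genes was -0.02, as for the heat shock genes, with 21 higher and 35 lower. Without scaling their median was 0.04, the opposite sign, so the balance of higher and lower genes depended on the scaling. The 3 lower genes, *Hspa13*, *Fkbp5* and *Hsp90b1*, were at -0.21, -0.21 and -0.20 without scaling, all inside the threshold. The 2 higher genes, *Dnaja4* and *Hsf5*, were at 0.37 and 0.45, and *Dnajb9* also passed, at 0.26.

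Partners of HSP70 covered a wide range of levels. Among relatives of HSP70 and HSP110, *Hspa4* and *Hspa4l*, both of the HSP110 branch, were highest per kilobase of exon, at 380.9 and 92.2 in the shRNA 1 table. *Hspa13*, an HSP70 relative of the endoplasmic reticulum (ER), was past the threshold with a shift of -0.28 (means 136 and 118). *Hspa1l*, *Hspa12a* and *Hspa12b* were not listed in both tables. Of 10 J-domain proteins, *Dnaja2* and *Dnajb6* had the highest levels per kilobase, 300.9 and 185.6 in the shRNA 1 table, and *Dnaja4* was past the threshold with a shift of 0.30 at means of 39.1 and 50.4. The exchange factors *Bag1* and *Bag3* stood at 288 and 174 per kilobase in that table, and none of the 6 genes of that list passed.

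The list of HSP90 co-chaperones held 13 genes. *Stip1*, which links HSP70 to HSP90, and *St13*, which binds HSP70, were highest in the shRNA 1 table, at 903 and 530 per kilobase. *Fkbp5*, a co-chaperone of steroid receptors and a known glucocorticoid target, was the only one of the 13 past the threshold. Its authors' means were 1753 and 1511, its shift was -0.28, and its implied difference was -622 (counting error at most 46.2).

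Among small heat shock proteins, *Cryab* stood at 836.5 per kilobase in the shRNA 1 table, above *Hspb1* at 295.5, and *Hspb6* at 39.4. The shifts of *Cryab* and *Hspb6* were -0.01 and 0.04. Of the other factors of the heat shock response, *Hsbp1*, which binds Hsf1, stood at 365 and *Hsf2* at 56.1 per kilobase in the same table, and *Hsf5* passed the threshold with a shift of 0.39 at means of 12.2 and 16.8, where the counting error is large (4.34 for an implied difference of 7.51).

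Outside the cytosol, the ER chaperones *Hspa5* and *Hsp90b1* lay on the same side as *Hsp90aa1*. *Dnajb9*, a J-domain protein of the ER, lay on the other side with a shift of 0.19. *Hspa5*, the HSP70 of the ER, had authors' means of 4917 and 4383 and a shift of -0.23, with an implied difference of -1472 (counting error at most 77.9). *Hsp90b1*, the HSP90 of the ER, had 3437 and 3002 and a shift of -0.26. The mitochondrial HSP70, *Hspa9*, had a shift of -0.01, and the mitochondrial chaperones *Hspd1*, *Trap1* and *Hspe1* had shifts of -0.14, -0.07 and 0.08. The 8 subunits of TRiC, the ring chaperonin that folds actin and tubulin, had shifts between -0.02 and 0.14. In the shRNA 1 table *Cct2*, which had the shift of 0.14, and *Cct6a* were highest per kilobase, at 865 and 759, whereas in the shRNA 2 table *Cct7* (814) stood above *Cct6a* (787).

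Promoter sequences, from 250 bases before to 50 after the annotated start, were taken from the RefSeq table of GRCm38.p6, another build than that of the gene positions above, and 6 of the 10 genes matched. No entry was found for *Hspa8*, *Hsp90aa1*, *Hsp90ab1* and *Hsf1*. They were searched for the core of the heat shock element, GAANNTTC or TTCNNGAA, each of which reads the same on both strands. A core was present in 5 of the 6 genes (*Hspa1a*, *Hspa1b*, *Hsph1*, *Hspb1* and *Hspb8*) and in 17.0% of all genes of the table. It was found in none of the 2 *Dnajb1* promoters. The longer element with 3 repeats, GAANNTTCNNGAA or its reverse complement TTCNNGAANNTTC, which contains 2 overlapping cores, was present in *Hsph1* alone, against 0.662% of all genes. In the wider lists, 17 of 52 genes with a promoter held a core and 4 held the longer element. The matches are shown with 8 bases on either side because this element is the known binding site of Hsf1, and the capitals mark the repeats.
Hspa1a: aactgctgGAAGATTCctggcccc
Hspa1b: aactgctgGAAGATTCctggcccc
Hsph1: tagaatctTTCTCGAAggctcgag
Hsph1: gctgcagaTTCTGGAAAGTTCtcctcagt
Hspb1: caacaagaGAAGTTTCcagatggg
Hspb1: tgggggcaGAACCTTCctggcccc
Hspb8: agccaggaGAAGTTTCtaggctcg
The positions on GRCm38.p6 are chr17:34972245-34972268 and chr17:34959327-34959350 on the - strand for *Hspa1a* and *Hspa1b*, chr5:149636354-149636377 and chr5:149636280-149636308 on the - strand for *Hsph1*, chr5:135887794-135887817 and chr5:135887814-135887837 on the + strand for *Hspb1*, and chr5:116422847-116422870 on the - strand for *Hspb8*. In *Hspa1a* and *Hspa1b* the printed bases are the same and the core starts 104 bases before the start site in both. In *Hspb8* it starts 2 bases after the start site. The matches are those of a letter search, and no binding of Hsf1 was measured.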

How the data were processed

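The 9 AML12 libraries (polyA-enriched and strand-specific, per the study's methods) were grouped by their titles. The authors trimmed the reads, ran TopHat2 on mm9, retained concordant pairs with a unique position, counted these per gene of GENCODE M1 in HTSeq (strand setting not given in the sources used here) and divided the counts by size factors in DESeq2 version 1.8.2. The signal deposited by the authors and used here is the mean normalized count over control and hairpin libraries in each of 2 tables. The log2 fold changes, standard errors, test statistics, p-values and adjusted p-values in the same tables are the authors' own comparisons and were not used, so nothing here compares knockdown with control. Each table lists the genes that the authors kept, and library depths are unknown here.

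All 13643 gene identifiers matched GENCODE M1 on NCBIM37, the assembly of mm9. Levels were divided by the union of annotated exons. The shRNA 2 table was scaled as stated, with a minimum mean of 10 and a log2 threshold of 0.25, and the arithmetic was tested on simulated data. Copies were searched with BLAST 2.17.0, and windows of 100 bases were compared exactly. The coding sequences were aligned with Biopython 1.88. Python 3.11.15, numpy 2.4.6, pandas 2.3.3 and matplotlib 3.10.9 were used.

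The genes and lists were chosen with earlier results of these data known. Named from the wider lists are the 2 genes highest per kilobase of the shRNA 1 table in each list and up to 3 past the threshold. *Cct7*, *Dnajb9*, *Hspd1*, *Trap1* and *Hspe1* were added after their values were seen. The division by windows was also added after the data had been seen. Genes of like pattern were not sought, as each gene has 2 pooled values. Alternatives were other scalings, thresholds, minimum means, lengths and a pseudocount of 1.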

Additional observations from a re-analysis of the deposited data

How the results depend on the processing

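No paired analysis was possible because no value per library was used, and for the same reason no replicate was left out. Scaling by the summed means, by the median of genes with a mean of at least 10, and a pseudocount of 1 moved the shift of none of the 10 heat shock genes by more than the counting interval. No scaling moved 4 of them beyond it, *Hspa8* to 0.06, *Hsp90aa1* to -0.17, *Hsp90ab1* to 0.13 and *Hsph1* to 0.04. The number of heat shock genes past the threshold was 5 at a threshold of 0.1, 0 at 0.5 and 0 with a minimum mean of 100, since *Hspa1a* then drops out, and 1 under the other settings. Among all genes, 2912 were higher and 2807 lower at a threshold of 0.1, 156 and 136 at 0.5, 292 and 374 with a minimum mean of 100, 1345 and 1300 with no minimum, and 1428 and 503 without scaling. The median shifts of the heat shock genes and of the wider lists moved by less than the median counting interval of their genes under each scaling and minimum tried, although without scaling they were 0.05 and 0.04, the opposite sign, and that of the heat shock genes was 0.02 with a minimum mean of 100. The count of 4 heat shock genes in the top 10% of levels was the same with both lengths and with a minimum mean of 10. Dividing by the longest coding transcript moved 7 of the 10 levels, that of *Hspa8* to 4055 and that of *Hsph1* to 165 per kilobase in the shRNA 1 table. Without spreads, the size of a hairpin difference that could have been detected is not known.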
